A study of Mus musculus with 6 samples.

Results

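A set of 8 genes that encode coregulators of steroid receptors were followed in ectopic lesions of a mouse endometriosis model from donors with and without a Cre allele that deletes floxed Dnmt3a, the gene of a de novo DNA methyltransferase. The genes were listed by name and function, with earlier results of these data known: Ncoa1, Ncoa2 and Ncoa3 (the p160 steroid receptor coactivators, also called SRC-1, SRC-2 and SRC-3), the acetyltransferase genes Crebbp and Ep300, the arginine methyltransferase gene Carm1, and the corepressor genes Ncor1 and Nrip1. All 8 were found among the 56884 genes of the count table, and all 8 were among the 18177 genes that passed the filter on low counts. The libraries came from 3 control lesions (WT) and 3 knockout lesions (KO), taken 4 weeks after disease onset according to the sample labels. Donors and recipients were 8 weeks old, and the donors had received estradiol. The donor mice carried floxed alleles in both groups (Dnmt3a f/f for WT and Dnmt3a f/f:PR-Cre/+ for KO), so that the floxed gene was shared and the Cre allele differed. Cre in this line is driven from the progesterone receptor gene, hence Dnmt3a is removed only in cells that express this receptor. The recipients, C57BL/6J females, were not deleted for Dnmt3a and carried an estrogen pellet, and their cells in the lesion kept the gene. The labels describe uterine fragments injected into the peritoneal cavity and the methods a fragment sutured to the mesentery, and the sources also differ in the day of collection. Each library held RNA of a whole lesion, so fewer cells of a type and less RNA per cell cannot be told apart.

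Steroid receptors such as the estrogen and progesterone receptors act through proteins that they recruit to DNA. Once a hormone is bound, the receptor takes up a p160 coactivator through short leucine-rich motifs, and the p160 protein brings in p300 or CBP (the products of Ep300 and Crebbp), which acetylate histones, and CARM1, which methylates arginines of histone H3. NCOR1 holds a histone deacetylase complex at receptors without an agonist, while RIP140, the product of Nrip1, binds receptors that carry an agonist and dampens their activity. In the uterus these proteins shape the response to estrogen and progesterone. A shortened form of SRC-1 protein made by proteolysis has been tied to the growth of endometriotic lesions, and gene-level read counts hold no information on it.

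The libraries held 45370342 to 57239184 counts. Levels are given as CPM, counts scaled to the size of their library after adjustment by its TMM factor (0.962 to 1.05). Dnmt3a itself stood at 52.7, 43.9 and 51.7 CPM in WT replicates 1, 2 and 3. It stood at 30.3, 33.5 and 36.2 CPM in KO replicates 1, 2 and 3. Every KO library lay below every WT library, with a log2 fold change of -0.57 ± 0.14 (SE) that was not past the threshold after adjustment (adjusted p = 0.321). Of the markers of the labelled tissue, all 8 of endometrial epithelium and all 6 of endometrial stroma were detected, with summed levels of 1653 to 2429 CPM in WT and 1527 to 2891 CPM in KO lesions for epithelium and 2263 to 2626 and 1610 to 2791 CPM for stroma. The libraries stood apart from each other in both groups. The 4 adipocyte markers summed to 724, 1911 and 618 CPM in the WT lesions and 311, 584 and 2720 CPM in the KO lesions. The 6 skeletal muscle markers summed to 22823 and 26839 CPM in WT replicates 1 and 3, to 3.53 CPM in WT replicate 2 and to at most 15.5 CPM in KO lesions. The 5 neutrophil markers summed to 9589 CPM in WT replicate 2, to 196 and 462 CPM in the other WT libraries and to 16.7 to 159 CPM in KO lesions. Pancreatic acinar markers reached 3254 CPM in WT replicate 3 and at most 16 CPM elsewhere. Some markers did not overlap between the groups as single genes. For 3 of the 6 stroma and 3 of the 5 smooth muscle markers every KO library lay above every WT library, beside 10.7% of all tested genes. The KO libraries all lay below the WT libraries for 4 of 4 T cell, 3 of 4 B and plasma cell, 2 of 5 neutrophil and 2 of 6 skeletal muscle markers. This was so for 8.74% of all tested genes.

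The comparison asked whether KO and WT lesions differed in the amount of these coregulator transcripts. None of the 8 genes passed the test at an adjusted p-value under 0.05 in edgeR's quasi-likelihood fit, where 0.0055% of all 18177 tested genes did. Nrip1 was higher in KO lesions at an unadjusted p-value under 0.05, a level that 6.55% of all tested genes reached on the higher side. No gene of the 8 was lower at this level, against 8.16% of all tested genes. DESeq2's Wald test gave 0 of the 8 after and before adjustment, where 5.47% and 12.7% of its genes passed. With limma voom, 0 of the 8 passed after adjustment and 1, Nrip1, before it, against 0.066% and 30.1% of all tested genes. The log2 fold change was below 0 for 7 of the 8 genes, compared with 48.6% of all tested genes. Without WT replicate 2 it was below 0 for 4 of the 8, beside 45.7% of all genes tested in that fit. Ncoa1 (0.023), Ncoa2 (0.044) and Ncoa3 (0.010) turned to above 0, and the median of the 8 was -0.030. With upper quartile scaling the values of Ncoa1 and Ncoa2 turned to above 0, and with a GC and length offset also that of Carm1. These settings moved the median of all genes from 0.01 to 0.11 and 0.12 on the log2 scale. With upper quartile scaling 5 of the 8 were then below 0, beside 40.0% of all genes, and with the offset 4, beside 39.7%. Relative to the median of all genes, the same 7 genes were below 0 under both settings. The differences were small in size. All 8 genes lay within 0.5 of 0 on the log2 scale, where 64.9% of all tested genes lay, and with all libraries the median of the 8 was -0.13 beside 0.014 for all tested genes.

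**Figure D1:**
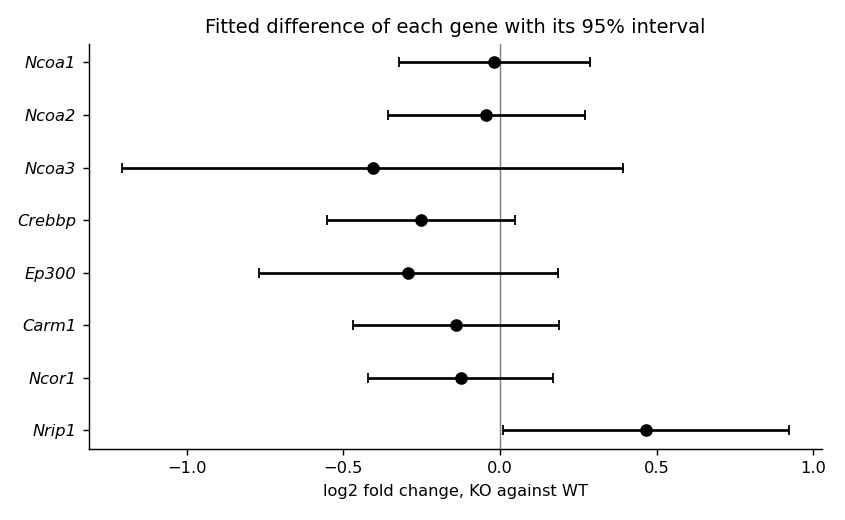
Fitted log2 fold change of KO against WT lesions (x axis) for each of the 8 genes (y axis), with bars for the 95% interval of edgeR's quasi-likelihood fit on 3 libraries a group. The interval of Nrip1 runs from 0.011 to 0.92 and lies above 0, and the other 7 intervals include 0.

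Among the p160 coactivators, Ncoa1 (ENSMUSG00000020647.11, chromosome 12) had close to the same level in all lesions. It was measured at 48.1, 49.1 and 42.3 CPM in WT replicates 1, 2 and 3 and at 42.6, 45.5 and 49.7 CPM in KO replicates 1, 2 and 3. Values of the other genes are given in the same order of replicates. The Ncoa1 groups overlapped, and the highest library was 1.17 times the lowest, while 2.51% of the tested genes had a narrower range. On the log2 scale the fold change was -0.018 ± 0.12 (SE, adjusted p = 0.955), and its 95% interval reached from 0.80-fold to 1.22-fold. This interval concerns the transcript and not the SRC-1 protein or its shortened form.

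Ncoa2 (ENSMUSG00000005886.15, chromosome 1), which encodes SRC-2, a coactivator needed for the response of the endometrium to progesterone, also overlapped between the groups. The values were 69.5, 78.3 and 62.6 CPM in the WT lesions and 65.7, 73.0 and 65.5 in the KO lesions. WT replicate 2 was the highest and WT replicate 3 the lowest, so the spread within WT covered the whole range of the KO lesions. KO against WT gave -0.044 ± 0.13 on the log2 scale (SE, adjusted p = 0.883), with an interval from 0.780-fold to 1.21-fold.

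Ncoa3 (ENSMUSG00000027678.18, chromosome 2), the gene of SRC-3, varied most of the 8. It had 60.3, 122 and 62.0 CPM in the WT lesions and 57.8, 51.0 and 75.7 in the KO lesions. WT replicate 2 stood far above the other libraries, and the remaining WT values lay inside the KO range. The log2 fold change of -0.41 ± 0.33 (SE, adjusted p = 0.554) became 0.010 without WT replicate 2. The same library held 9589 CPM of neutrophil markers, of which all 5 were detected in the series, and the part of these cells in the Ncoa3 value was not tested. Across the 6 libraries, the tested gene most like Ncoa3 was Slc11a1, which encodes a metal transporter of phagocytes (Pearson's r = 0.999 of log2 CPM, among 15045 candidate genes, and 0.996 without WT replicate 2). It had 144 CPM in WT replicate 2 and 14.1 to 39.2 CPM in the other libraries.

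**Figure D2:**
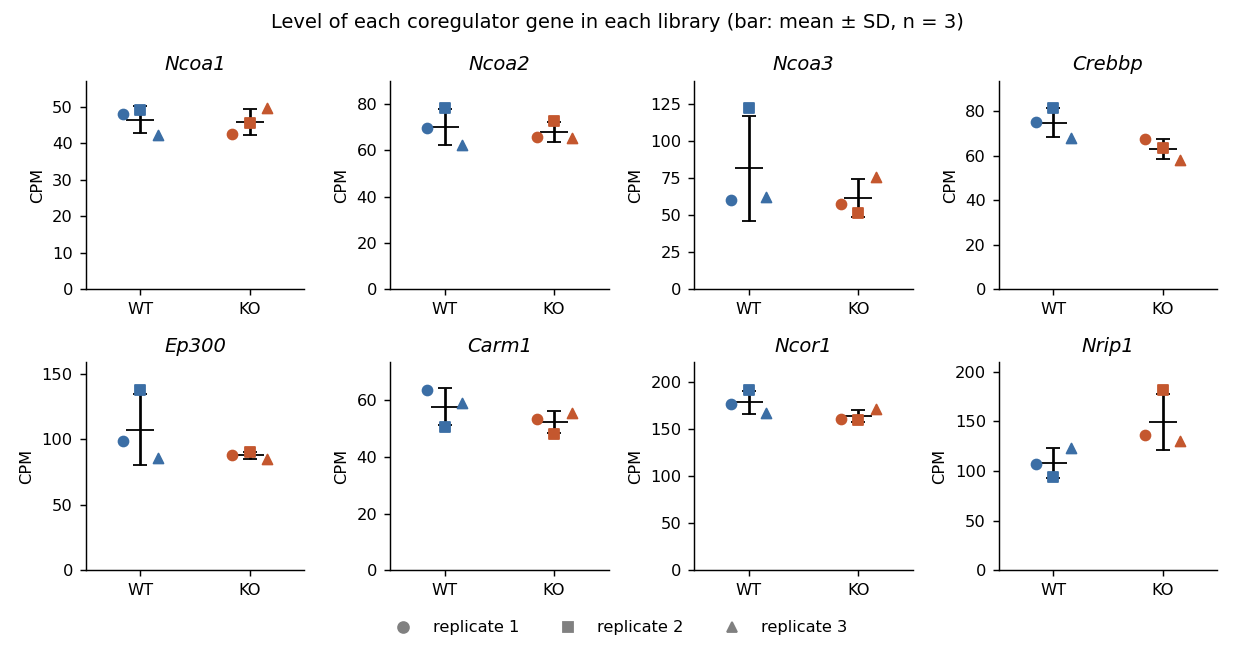
Level in CPM (y axis, from 0) of each gene in the WT and KO lesions, with 1 symbol per library, its shape giving the replicate number, and the mean with SD (n = 3) in black. WT replicate 2 stands out for Ncoa3 at 122 CPM and Ep300 at 138 CPM, and the Nrip1 points of KO lie above those of WT.

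The acetyltransferase genes were both lower on average in KO lesions without passing the test. Crebbp (ENSMUSG00000022521.11, chromosome 16) had 75.1, 81.4 and 68.1 CPM in the WT lesions and 67.3, 63.2 and 58.1 in the KO lesions. Every KO library lay below every WT library, but the gap between the highest KO and the lowest WT library was small. Such an absence of overlap was found on the lower side for 8.74% of all tested genes and on either side for 19.4%, and among the 8 genes it was found for Crebbp and, on the higher side, for Nrip1. For Crebbp the log2 fold change was -0.25 ± 0.12 (SE, unadjusted p = 0.0861, adjusted p = 0.373), or 0.840-fold with an interval from 0.683-fold to 1.03-fold. The exact two-sided permutation test gave p = 0.1, the smallest value that 3 lesions against 3 allow. Across the alternatives the log2 fold change of Crebbp ran from -0.34 to -0.14.

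Ep300 (ENSMUSG00000055024.13, chromosome 15) had 98.5, 138 and 85.6 CPM in the WT lesions and 88.1, 90.1 and 84.7 in the KO lesions. As for Ncoa3, WT replicate 2 was the highest library, and WT replicate 3 lay within the KO range. The KO lesions were tight around 87.6 ± 2.72 CPM (SD, n = 3), while the WT lesions spread over 107 ± 27.2 CPM (SD, n = 3). The fitted log2 fold change was -0.29 ± 0.20 (SE, adjusted p = 0.478), and without WT replicate 2 it was -0.070. The ratio of Ep300 to Crebbp, taken per exon length within each library, was 1.24, 1.61 and 1.19 in WT and 1.24, 1.35 and 1.38 in KO lesions. Ep300 was thus above Crebbp in all 6 libraries, by most in WT replicate 2.

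Carm1 (ENSMUSG00000032185.17, chromosome 9) encodes the methyltransferase that p160 proteins recruit, and its groups differed by less than the spread within WT. It had 63.7, 50.6 and 58.9 CPM in the WT lesions and 53.4, 48.1 and 55.6 in the KO lesions. WT replicate 2 lay inside the KO range, so the groups overlapped. The log2 fold change was -0.14 ± 0.13 (SE, adjusted p = 0.617) with an interval from 0.723-fold to 1.14-fold, and with a library left out it ran from -0.23 (without WT replicate 2) to -0.064 (without WT replicate 1), with -0.079 without KO replicate 2. In the annotation, 21.1% of the exon length of Carm1 is shared with Yipf2 on the opposite strand, which held 1004 to 2128 counts. The strand setting of the counting is not given in the sources used here, and the part of Yipf2 reads in the Carm1 counts was not tested.

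Of the corepressors, Ncor1 (ENSMUSG00000018501.18, chromosome 11) had the highest level of the 8 per exon length and one of the narrowest ranges. It stood at 177, 192 and 168 CPM in WT and at 161, 160 and 171 CPM in KO lesions. KO replicate 3 lay between WT replicates 3 and 1, so the groups overlapped by a single library. The highest library was 1.20 times the lowest, and 4.2% of the tested genes had a narrower range. Its log2 fold change of -0.13 ± 0.12 (SE, adjusted p = 0.617) had an interval from 0.747-fold to 1.12-fold, and without WT replicate 2, its highest library, it was -0.070.

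Nrip1 (ENSMUSG00000048490.15, chromosome 16) was the only gene of the 8 with a higher mean in KO lesions. It had 107, 93.8 and 124 CPM in the WT lesions and 137, 182 and 130 in the KO lesions. Every KO library lay above every WT library, which was so for 10.7% of all tested genes, although KO replicate 3 was close to WT replicate 3 and KO replicate 2 was well above the rest. On average the WT lesions held 108 ± 14.9 CPM and the KO lesions 150 ± 28.2 CPM (SD, n = 3 each, exact permutation test, two-sided, p = 0.1). The log2 fold change was 0.47 ± 0.19 (SE), or 1.38-fold with an interval from 1.01-fold to 1.90-fold, with an unadjusted p of 0.0462 and an adjusted p of 0.335 in edgeR's quasi-likelihood test. The unadjusted p in this test was 0.110 without WT replicate 1, 0.110 without WT replicate 2, 0.0556 without KO replicate 1 and 0.143 without KO replicate 2. It was 0.0507 with no filter beyond 1 count and 0.122 with the replicate block, and 0.0580 in DESeq2's Wald test. In 8 of the 15 alternatives it was under 0.05. The log2 fold change stayed between 0.31 and 0.56 with any library left out. The direction was the same under all 15 alternatives. No other annotated gene shared exon bases with Nrip1.

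Beside Nrip1, the epithelial marker sum was 1668, 1653 and 2429 CPM in the WT lesions and 2891, 2697 and 1527 in the KO lesions. It overlapped between the groups and was lowest in KO replicate 3. The markers named above as not overlapping were single genes, and the stroma and smooth muscle sums overlapped between the groups. The smooth muscle sum was 781 to 4147 CPM in WT and 1694 to 2905 CPM in KO lesions. The T cell sum was lower in every KO lesion (2.03 to 8.96 CPM) than in any WT lesion (11.6 to 30.8 CPM). So was the sum of B and plasma cells (52.9 to 83.3 against 85.1 to 560 CPM). Esr1, the gene of estrogen receptor alpha, had 191, 93.2 and 200 CPM in the WT lesions and 387, 445 and 226 in the KO lesions (log2 fold change 1.13 ± 0.39 SE, unadjusted p = 0.0265, adjusted p = 0.328). Its groups did not overlap, and WT replicate 2 was the lowest and KO replicate 2 the highest library for both genes. The part of these differences in the values of Nrip1 and Crebbp was not tested.

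The annotated start regions of Nrip1 are shown because Nrip1 was the gene with the largest difference and because the deleted enzyme acts on CG sites, whose methylation was not measured here. RefSeq on GRCm38.p6 gives 2 windows of 300 bases for Nrip1, each from 250 bases before to 50 bases after a start, both on the minus strand of chromosome 16. The first lies at chr16:76373778-76374077 and the second, downstream, at chr16:76373000-76373299. CG dinucleotides are in capitals.
Nrip1 upstream start: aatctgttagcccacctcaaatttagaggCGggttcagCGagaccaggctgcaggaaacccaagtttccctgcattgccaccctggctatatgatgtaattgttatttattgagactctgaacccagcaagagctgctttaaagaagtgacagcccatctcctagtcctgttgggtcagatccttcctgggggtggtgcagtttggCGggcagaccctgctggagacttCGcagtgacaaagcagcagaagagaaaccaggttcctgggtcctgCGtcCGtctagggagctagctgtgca
Nrip1 downstream start: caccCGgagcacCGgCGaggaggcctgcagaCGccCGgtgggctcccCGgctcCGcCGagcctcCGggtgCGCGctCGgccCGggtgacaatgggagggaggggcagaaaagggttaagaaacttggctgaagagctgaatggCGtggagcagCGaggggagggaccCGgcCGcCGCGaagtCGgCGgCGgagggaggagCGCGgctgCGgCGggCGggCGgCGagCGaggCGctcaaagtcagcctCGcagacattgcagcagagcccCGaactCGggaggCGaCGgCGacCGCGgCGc
The upstream window holds 6 CG dinucleotides and the downstream window 40, while the median over all 32851 RefSeq windows was 7. The letters GGTCA, 1 arm of the estrogen response element, occur once in the upstream window and not in the downstream window, counting both strands, and 40.5% of all windows hold them. The full palindromic element, both arms with 3 bases between them, is in neither window, and 0.07% of all windows hold it. Windows were given for 5 of the 8 genes. Ncoa1 had 49 CG dinucleotides, Crebbp 49 and Ep300 30, and the windows of Ncor1 held 36 and 2. Gene counts do not tell which start of Nrip1 or Ncor1 was used.

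Levels between genes were compared as CPM per kilobase of annotated exon. By the mean over all 6 libraries the order was Ncor1 (13.4 ± 0.941, SD), Carm1 (11.3 ± 1.17), Nrip1 (11.3 ± 2.65), Ncoa3 (9.06 ± 3.31), Ep300 (6.83 ± 1.43), Ncoa1 (5.39 ± 0.378), Crebbp (5.09 ± 0.613) and Ncoa2 (4.42 ± 0.370). All 8 thus lay above the middle of the tested genes, from the 53.3rd to the 79.4th percentile. Neighbours in this order were compared within libraries by an exact two-sided sign-flip permutation test over 6 libraries, for which the smallest p is 0.0312. The pairs and their direction came from these same libraries, WT and KO together. The counts and p-values therefore describe the order and give it no separate support. Ncor1 over Carm1, Ncoa3 over Ep300, Ep300 over Ncoa1 and Crebbp over Ncoa2 held in 6 of 6 libraries, with an adjusted p of 0.0547 each over the 7 pairs in this exact permutation test. None of the 7 pairs was past 0.05 after adjustment. Carm1 and Nrip1 (ratio 1.03, 4 of 6 libraries), Nrip1 and Ncoa3 (1.27, 5 of 6) and Ncoa1 and Crebbp (1.06, 3 of 6) changed places between libraries. By group, Nrip1 came first by the KO mean (13.1, with Ncor1 at 12.8) and the fourth by the WT mean (9.45, below Ncoa3 at 10.3). Nrip1 ranked first of the 8 in KO replicate 2 and the fifth in WT replicate 2, where Ncoa3 ranked first. With coding length in place of exon length the order changed for 6 of the 8 genes and Nrip1 came first, so the order depends on the length chosen.

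**Figure D3:**
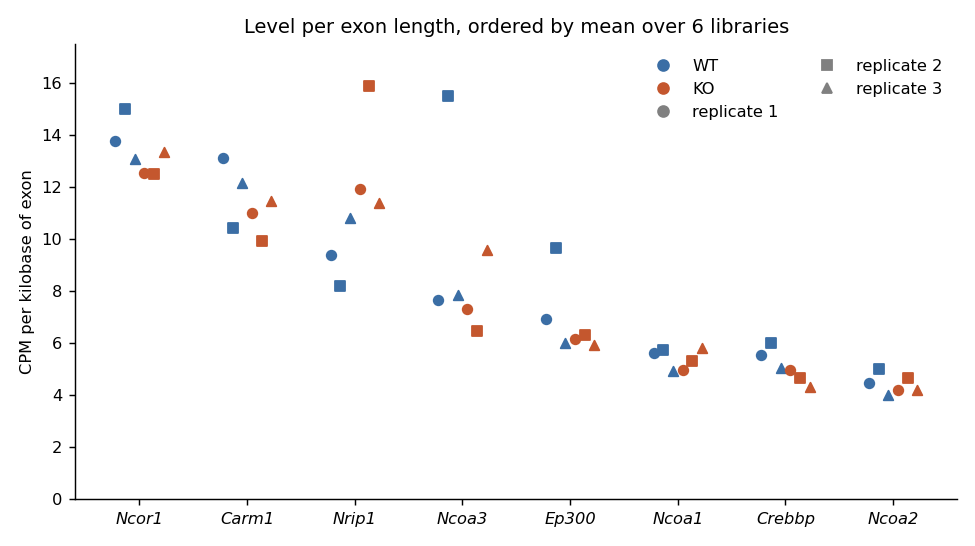
CPM per kilobase of annotated exon (y axis, from 0) for each gene and library, ordered by the mean over the 6 libraries, with WT in blue and KO in orange and the shape giving the replicate number. Ncoa3 in WT replicate 2 (15.5) and Nrip1 in KO replicate 2 (15.9) are the highest points of the plot.

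Within the p160 family, Ncoa3 took the largest part of the summed level per exon length in every library. Its share was 43.1%, 59.1% and 46.8% in WT and 44.4%, 39.3% and 49.0% in KO lesions. Ncoa1 held 31.7%, 21.8% and 29.4% in WT and 30.1%, 32.3% and 29.6% in KO lesions, and Ncoa2 held the rest, from 19.1% to 28.4%. These shares depend on the length chosen. With coding length the mean level was 17.0 CPM per kilobase for Ncoa3 and 15.8 for Ncoa2, beside 9.06 and 4.42 per exon length. Except for WT replicate 2, where Ncoa3 took more, the shares overlapped between the groups. The summed p160 level was 17.7, 26.2 and 16.8 in WT and 16.5, 16.4 and 19.6 in KO lesions, again highest in WT replicate 2. The ratio of Ncor1 to this sum was lowest in WT replicate 2 and overlapped between the groups, at 0.779, 0.572 and 0.780 in WT and 0.760, 0.759 and 0.683 in KO lesions. The ratio of Nrip1 to Ncor1, which does not depend on how libraries are scaled, was 0.680, 0.546 and 0.825 in WT and 0.951, 1.27 and 0.852 in KO lesions. The groups did not overlap in this ratio, although WT replicate 3 came close to KO replicate 3. Against the p160 sum, Nrip1 had ratios of 0.530, 0.312 and 0.643 in WT and 0.723, 0.966 and 0.582 in KO lesions, which overlapped. Against Esr1 the ratio of Nrip1 went the other way, with 0.669, 1.20 and 0.738 in WT and 0.421, 0.488 and 0.686 in KO lesions, and overlapped too.

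Pearson's r of log2 CPM between the 8 genes over the 6 libraries is given as a description, since the libraries share depth, tissue makeup and the group difference. Of the 28 pairs, 5 had r above 0.8 and 10 had r below 0. The 5 pairs were Ncoa3 and Ncor1 (0.897), Ep300 and Ncor1 (0.864), Ncoa2 and Ep300 (0.845), Crebbp and Ep300 (0.832) and Ncoa3 and Ep300 (0.824). All of these genes had their highest level in WT replicate 2. Over the 5 libraries without it, the values were 0.603, 0.409, 0.611, 0.762 and -0.41 in the same order, so none of these 5 pairs was above 0.8. Carm1 and Ncor1 went the other way, from 0.126 to 0.878. Nrip1 had negative r with all other 7 genes over the 6 libraries, lowest with Ncor1 (-0.888, and -0.834 without WT replicate 2). Without WT replicate 2 its r was lowest with Carm1 (-0.978, and -0.446 over the 6 libraries). The sign changed for Ncoa2 without WT replicate 2 (0.511) and for Carm1 without KO replicate 2 (0.111). The tested gene most like each, besides Slc11a1 for Ncoa3, was B430010I23Rik for Ncoa1 (r = 0.989), Slc9a3r1 for Ncoa2 (0.987), Sbds for Crebbp (0.990), Atad2b for Ep300 (0.998), Vps36 for Carm1 (0.993), Sik1 for Ncor1 (0.995) and Gm5869 for Nrip1 (0.994). With 6 libraries such values are common: 54 to 1046 other genes had r above 0.9 with a given one of the 8.

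Other coregulators were taken from a fixed list of 26 coactivators and 23 corepressors, of which 26 and 21 passed the filter on low counts. None of these 47 genes passed at an adjusted p-value under 0.05 (lowest adjusted p = 0.328, edgeR's quasi-likelihood test), and 4 had an unadjusted p under 0.05, 1 higher and 3 lower in KO lesions, beside 14.7% of all tested genes. The median log2 fold change was 0.0032 for the coactivators and -0.016 for the corepressors, beside 0.014 for all tested genes. Cited2, whose product binds p300 and CBP and competes with other factors for them, had 35.8, 26.4 and 28 CPM in the WT lesions and 15.0, 17.4 and 23.5 in the KO lesions (log2 fold change -0.69 ± 0.22 SE, adjusted p = 0.328). Ppargc1b, a coactivator gene of mitochondrial metabolism, had 5.51, 3.22 and 3.99 CPM in the WT lesions and 2.33, 2.62 and 1.38 in the KO lesions (-1.01 ± 0.36 SE, adjusted p = 0.328). The nuclear receptor corepressor gene Hr had 25.9, 12.2 and 15.4 CPM in the WT lesions and 8.91, 10.8 and 9.92 in the KO lesions (-0.85 ± 0.30 SE, adjusted p = 0.328). On the other side Prmt2, an arginine methyltransferase gene, had 16.5, 17.4 and 18.9 CPM in the WT lesions and 21.6, 23.8 and 22.1 in the KO lesions (0.35 ± 0.13 SE, adjusted p = 0.328). The groups of these 4 genes, which were picked by their p-value, did not overlap. Over all 47 genes the groups did not overlap for 1 on the higher side and 5 on the lower side. Of all tested genes, this was so for 10.7% and 8.74%. The genes with the highest level per exon length were Ddx5 (97.4 ± 13.3 CPM per kilobase, SD, n = 6), Ctbp1 (31.7 ± 2.64) and Ddx17 (28.8 ± 3.37), and their log2 fold changes were 0.0022, -0.015 and 0.023. Nr0b1 and Nr0b2 were not tested, with at most 22 counts in any library.

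**Figure D4:**
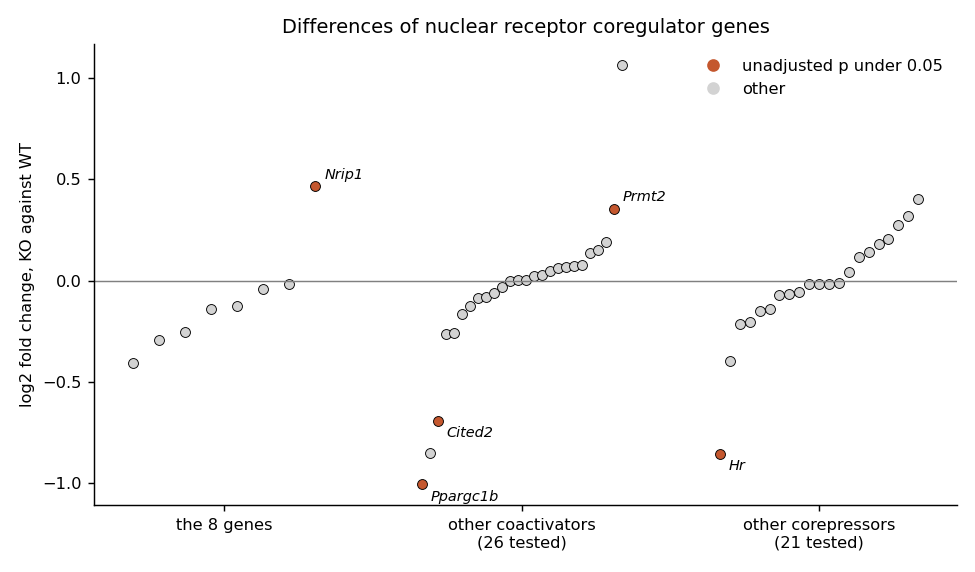
Log2 fold change of KO against WT lesions (y axis) for the 8 genes, 26 other coactivators and 21 other corepressors, each point 1 gene, sorted within its list and in orange with an unadjusted p under 0.05. Of the 47 other coregulators, 42 lie within 0.5 of 0, and Nrip1, Prmt2, Cited2, Ppargc1b and Hr carry their names.

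Of the receptors these proteins serve, Esr1 is given above. Pgr, the progesterone receptor gene, had 137, 135 and 227 CPM in the WT lesions and 255, 240 and 151 in the KO lesions and overlapped between the groups (log2 fold change 0.37 ± 0.30 SE, adjusted p = 0.554). For the receptor genes Nr3c1 and Nr3c2 the log2 fold changes were -0.56 and -0.25 (lowest adjusted p = 0.517). Esr2, the gene of estrogen receptor beta, was not tested, with 4 to 5 counts in WT lesions and 8, 162 and 10 counts in KO replicates 1, 2 and 3.

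Ncoa1 lies on the same chromosome as the deleted gene. Of the genes annotated between Dnmt3a and Ncoa1, 5 passed the filter (Cenpo, Adcy3, Dnajc27, Efr3b and Ptrhd1), and their log2 fold changes ran from -1.84 to 0.39. Dnajc27, at -1.84, had 42.0 and 39.3 CPM in WT replicates 1 and 3, the libraries with skeletal muscle markers, and 7.83 CPM in WT replicate 2, which lay within the KO range. None of the 5 passed after adjustment (lowest adjusted p = 0.328), and Ncoa1 at the far end of the interval had the log2 fold change of -0.018 given above.

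**Figure D5:**
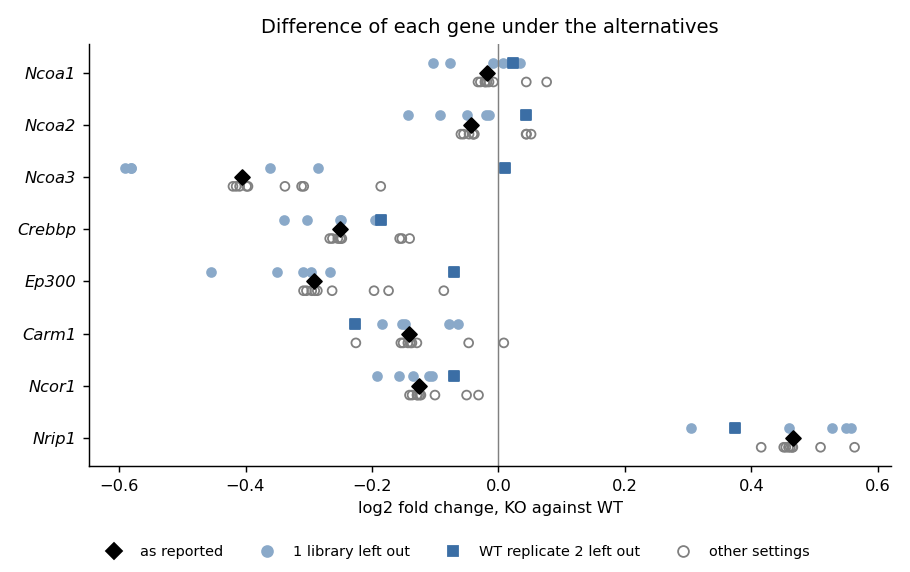
Log2 fold change of KO against WT lesions (x axis) of each gene (y axis) as reported (black diamond), with 1 library left out (filled blue, a square for WT replicate 2) and under the other settings (open grey). The square of Ncoa3 lies at 0.010 and that of Ep300 at -0.070, while all Nrip1 points lie between 0.31 and 0.56.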

How the data were processed

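Poly(A) RNA libraries (TruSeq Stranded) of 3 WT and 3 KO lesions were analysed. The deposited tables hold unnormalized read counts for each gene. The authors trimmed, mapped and counted on Galaxy, and the labels name Trimmomatic, featureCounts and DESeq2, without versions. The paper names GRCm38 and the labels GRCm39. Of 56884 gene identifiers, 51948 matched GENCODE M21 (GRCm38) without their version and 35 with it. Coordinates are therefore given only for the Nrip1 start windows, on GRCm38.p6. These windows, and exon lengths, overlaps and chromosomes from M21, can differ from the models counted. Labels give separate replicates, and p-values measure the spread between these lesions. Counts carry no molecular identifiers.

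Genes were filtered with filterByExpr, scaled by TMM (factors 0.962 to 1.05) and tested KO against WT with the quasi-likelihood test of edgeR 4.0.16 (R 4.3.3), genotype as the only term, with Benjamini-Hochberg adjustment over 18177 genes and a threshold of 0.05. SE is the log2 fold change divided by the root of F. Log2 CPM used a prior count of 2. Permutation tests used scipy 1.17.1. Alternatives were DESeq2's size factors, upper quartile scaling, other filters, DESeq2 1.42.0, limma 3.58.1 voom with sample weights, a replicate block, a loess offset for GC and length (span 0.5), thinned libraries (seed 7) and each library left out. The main edgeR fit, DESeq2, limma voom and the offset were first tested on simulated data, and the other alternatives were not. Named genes were the 8, listed coregulators with an unadjusted p under 0.05 or the 3 highest levels, receptors, genes between Dnmt3a and Ncoa1, and the most correlated gene of each with a mean of at least 1 CPM. A receptor is not reported here. Members and lists were chosen with earlier results of these data known.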

Additional observations from a re-analysis of the deposited data

How the results depend on the processing

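None of the 8 genes passed at an adjusted p-value under 0.05 in any of the 15 alternatives, and of 120 recomputed log2 fold changes 11 changed sign, in Ncoa1, Ncoa2, Ncoa3 and Carm1. Nrip1 lost its unadjusted p under 0.05, leaving 0 higher genes, with no filter beyond 1 count, with DESeq2 and with the replicate block (0 to 1 with a library left out), and the cause was not tested. Signs changed with upper quartile scaling for Ncoa1 (0.076) and Ncoa2 (0.052), with the GC and length offset for Ncoa1 (0.044), Ncoa2 (0.044) and Carm1 (0.0085), and with limma voom for Ncoa2 (0.044). With a library left out, Ncoa1 ran from -0.10 to 0.035, Ncoa2 from -0.14 to 0.044 and Ncoa3 from -0.59 to 0.010. With 3 libraries a group, the lowest unadjusted p of the 8 genes was 0.0255, for Nrip1 with upper quartile scaling.

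Of the other coregulators, the higher number was 2 with upper quartile scaling, 0 without a filter, 4 with limma voom, 0 with the replicate block and 0 to 4 with a library left out, and the lower number was 0 with the replicate block and 0 to 4 with a library left out. Over all genes tested, the number at an adjusted p under 0.05 was 0 with DESeq2's size factors in edgeR, upper quartile scaling, the offset and the replicate block, 12 with limma voom, 1083 with DESeq2 and 0 to 398 with a library left out. The higher number at an unadjusted p under 0.05 was 1945 with upper quartile scaling, 1844 with the offset, 2596 with limma voom, 613 with the replicate block and 499 to 2185 with a library left out. The lower number was 2307 with DESeq2, 2882 with limma voom, 787 with the replicate block and 703 to 2366 with a library left out.

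The replicate numbers are only shared names: deviations of same-numbered libraries correlated by -0.20 to 0.032 across genes, 0 of 3 pairs were above 0.1, and 0 of 6 libraries correlated best with their own number. With coding length, 6 genes changed rank, with log2 ratios of -0.27 for Ncor1 over Carm1, -0.37 for Carm1 over Nrip1 and -0.75 for Crebbp over Ncoa2. With a library left out, 0 to 2 genes changed rank, and Carm1 over Nrip1 ran from -0.054 to 0.18. With 5 libraries the smallest p of the sign-flip test is 0.0625, so it was not repeated there.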
